A study of Mus musculus with 22 samples.

Results

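Genes of the unfolded protein response and of protein folding in the endoplasmic reticulum (ER) were examined in livers of mice given diclofenac, a nonsteroidal anti-inflammatory drug, or saline. The 33 genes are those of a named list whose symbol is the only one annotated to at least 1 probe set of the array. They were sorted by role into 3 genes of the IRE1 and ATF6 arms, 5 of the PERK-ATF4 branch, 14 ER chaperones and folding enzymes, 7 factors of ER-associated degradation, 3 of the translocon and 1 cytosolic co-chaperone. Out of 18194 genes with a probe set of their own these 33 held 83 of 34958 probe sets, and each gene was read from its probe set of highest mean log2 signal over the 22 arrays. All 33 exceeded the median of their array in 3 or more livers of each fitted set of arrays, so none was dropped as too dim.

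The ER folds the proteins that a cell secretes or places in membranes, and hepatocytes secrete most plasma proteins. When unfolded proteins build up in the ER lumen, 3 sensors in its membrane respond: IRE1 splices the mRNA of the transcription factor XBP1, ATF6 is cut to release a transcription factor, and PERK phosphorylates the initiation factor eIF2 alpha, which lowers translation in general and raises that of ATF4. These factors act on genes of chaperones, of enzymes that form disulfide bonds, of the machinery that returns misfolded proteins to the cytosol for the proteasome, and, with lasting stress, of the cell death regulator CHOP.

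Male C57BL6 mice, 8 weeks old, received 30 mg/kg of diclofenac sodium every day by intraperitoneal injection and were killed at day 1, 3 or 14, and the controls received corresponding amounts of saline over the same days. Of both diclofenac and saline there were 3 livers on each of days 1 and 3 and 5 livers on day 14, each hybridised to an Affymetrix mouse whole-genome expression array, while the labels give 5 mice for each group and the study's methods 6. The labels do not say which mice were taken for the arrays, and p-values here measure the spread between these livers. RNA came from whole liver, so that fewer cells of a type and less RNA per cell cannot be told apart.

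Signals are MAS5 values, scaled by the authors so that the 2% trimmed mean of each array was 500, and the array medians lay between 75.2 and 89.9. The 8 hepatocyte markers on the list were above the array's median in every liver of each of the 6 groups. Of the plasma cell and B cell markers, 7 of 8 were on the array and 2 or 3 of these stayed below the array's median in every liver of each group. Diclofenac replicate 2 at day 1 and diclofenac replicate 3 at day 14 stood apart in markers of neutrophils. The summed signal of the 10 neutrophil markers on the array was 26097 in the first of these livers, against 1835 to 2064 in the other diclofenac livers of day 1 and 734 to 1303 in its saline livers. In the second it was 24727, against 819 to 2956 in the other diclofenac livers of day 14 and 371 to 654 in its saline livers. The same 2 livers also had the highest summed signal of plasma cell and B cell markers on their day, with 16524 and 17122. The other livers reached at most 9545 at day 1 and, in a saline liver, 15337 at day 14. Of the 7 markers on the array, 3 were highest in the first of these livers and 2 in the second. Day 14 replicate 3 was also the highest in Kupffer cell markers, with a summed signal of 24311 over 7 genes. The other diclofenac livers had 7312 to 10987 there and saline livers 4250 to 11258. In cholangiocyte markers replicate 3 had 2358 over 4 genes, against 321 to 481 and 248.6 to 334. Its summed signals were also the highest of the day for hepatocyte (733443), endothelial (8270) and stellate cell (12517) markers. Saline livers reached at most 635355, 7199 and 10421 for these. For hepatocyte markers another diclofenac liver of day 14 reached 710089, and replicate 3 was the highest for 3 of the 8 markers. Kupffer cell markers had a difference above 0 for 7 of 7 genes on each day. Of the 7, 5 were apart upward from saline at day 1, against 8.23% of all genes. At day 3 there were 4, against 10.8%, and at day 14 there were 0, against 2.18%. The part of these cell types in the differences described here was not tested. Values without these 2 livers are given beside many of the single-gene differences and for the roles as a whole.

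Promoter sequence shows which of these genes carry the classical ER stress response element (ERSE), the site that ATF6 binds together with the CCAAT-binding factor NF-Y. Promoter windows of 250 bases before to 50 after the transcription start were available for 27 of the 33 genes (RefSeq, GRCm38.p6). The letters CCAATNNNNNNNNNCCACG were searched on both strands and were present in 9 of the 27 windows, against 0.119% of all 32851 windows. They are shown because this is the classical element of the pathway, and each is written from 5′ to 3′ on the strand that carries the motif, with its fixed letters in capitals.
Hspa5: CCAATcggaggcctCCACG
Pdia6: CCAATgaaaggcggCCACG
Dnajc3: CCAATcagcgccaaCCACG
Canx: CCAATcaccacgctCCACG
Calr: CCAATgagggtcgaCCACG
Creld2: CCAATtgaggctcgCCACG
Syvn1: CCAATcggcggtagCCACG
Derl3: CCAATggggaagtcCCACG
Hsp90b1 nearer site: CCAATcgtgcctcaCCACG
Hsp90b1 farther site: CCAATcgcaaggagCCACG
The Hspa5 site lies at chr2:34772025-34772043 and begins 65 bases before the start, Pdia6 at chr12:17266491-17266509, Dnajc3 at chr14:118937827-118937845, Canx at chr11:50325800-50325818 and Syvn1 at chr19:6046532-6046550, all read on the strand of the gene. The sites of Calr at chr8:84847075-84847093, Creld2 at chr15:88819520-88819538 and Derl3 at chr10:75893242-75893260 are read on the opposite strand. Hsp90b1 has a pair of sites in opposite orientation, at chr10:86705533-86705551 (opposite strand) and chr10:86705638-86705656 (strand of the gene). Without the last G, the 18 letters were in 13 of the 27 windows, adding Pdia3, Pdia4, Herpud1 and Derl2, against 0.365% of all windows. Every window with the 19 letters also holds these 18.

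A more compact element, ERSE-II, read as ATTGG, any base and CCACG on either strand, was present in the windows of Herpud1 and Dnajb11 and in 0.0365% of all windows. The core of the element that ATF4 binds with C/EBP proteins, TGATGNAA, was found in Herpud1 and Trib3, against 3.97% of all windows. The 250 bases before the start of Hspa5 (chr2:34771840-34772089, plus strand, the ERSE in capitals) and of Herpud1 (chr8:94386179-94386428, plus strand, with the ATF4 core, which reads on the opposite strand, the ERSE-II and the 18-letter element in capitals) are given as the promoters of the lead chaperone and the lead degradation factor.
Hspa5: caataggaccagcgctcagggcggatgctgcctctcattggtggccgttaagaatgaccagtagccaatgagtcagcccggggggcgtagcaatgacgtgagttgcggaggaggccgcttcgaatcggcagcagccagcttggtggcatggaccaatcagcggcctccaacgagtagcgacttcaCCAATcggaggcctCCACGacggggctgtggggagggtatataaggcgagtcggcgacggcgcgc
Herpud1: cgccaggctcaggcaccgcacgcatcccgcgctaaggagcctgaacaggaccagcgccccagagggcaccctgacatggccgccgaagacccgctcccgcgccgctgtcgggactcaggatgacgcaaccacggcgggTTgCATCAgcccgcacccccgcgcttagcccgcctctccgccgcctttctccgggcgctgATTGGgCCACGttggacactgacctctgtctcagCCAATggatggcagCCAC
A match of letters is a description of the window and not evidence that a factor was bound there in these livers.

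Most of the 33 genes stood slightly higher in diclofenac livers at day 1, showed no common direction at day 3, and again stood higher at day 14, while few of the single differences passed the test. The log2 difference between diclofenac and saline was above 0 for 27 of 33 genes at day 1, with a median of 0.26. It was above 0 for 12 genes at day 3, with a median of -0.06, and for 32 genes at day 14, with a median of 0.41. Over all genes tested the share above 0 was 50.2%, 51.4% and 47.8% on the same days, with medians of 0.00, 0.01 and -0.01. Limma with Benjamini-Hochberg adjustment over all genes passed 1 of the 33 genes at day 3, which was Xbp1, against 0.202% of 12884 genes, and none at day 1 or at day 14, where it passed no gene at all (0% of 12884 and 0% of 11884). When the effects of days 1 and 3 were averaged, Xbp1 and Dnajc12 passed, against 0.675% of 12884 genes. That contrast was added in earlier work on these data after results had been seen, and it is not independent of them.

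Counts without adjustment were lowest at day 3. At an unadjusted p under 0.05 there were 11 of 33 genes at day 1, against 13% of all genes tested, 4 at day 3, against 10.8%, and 17 at day 14, against 10.8%. On the mean of days 1 and 3 there were 8, against 17.2%. The methods' t-test (Welch, unadjusted p under 0.05 and more than 1.5-fold) picked Derl1 and Eif2ak3 at day 1, Xbp1 and Dnajc12 at day 3, and Creld2, Dnajb9, Manf and Sdf2l1 at day 14, each of them higher with diclofenac, against 1.46%, 2.49% and 2.39% of all genes tested, and it kept none after Benjamini-Hochberg adjustment.

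Separation of the livers needs no model. At day 1 all diclofenac livers lay above all saline livers for 12 of 33 genes, against 8.23% of all genes, and below them for 1, Derl2, against 8.1%. At day 3 the livers were apart upward for Xbp1 and Dnajc12, against 10.8% of all genes, and downward for Trib3, Herpud1 and Derl2, against 9.21%. At day 14 they were apart upward for Xbp1, Dnajb9, Derl2, Sec61a1 and Dnajc12, against 2.18% of all genes, and for none downward, against 1.6%. With 3 livers against 3 the smallest p of an exact permutation test is 0.1, so that separation at days 1 and 3 cannot pass 0.05 by itself.

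**Figure D1:**
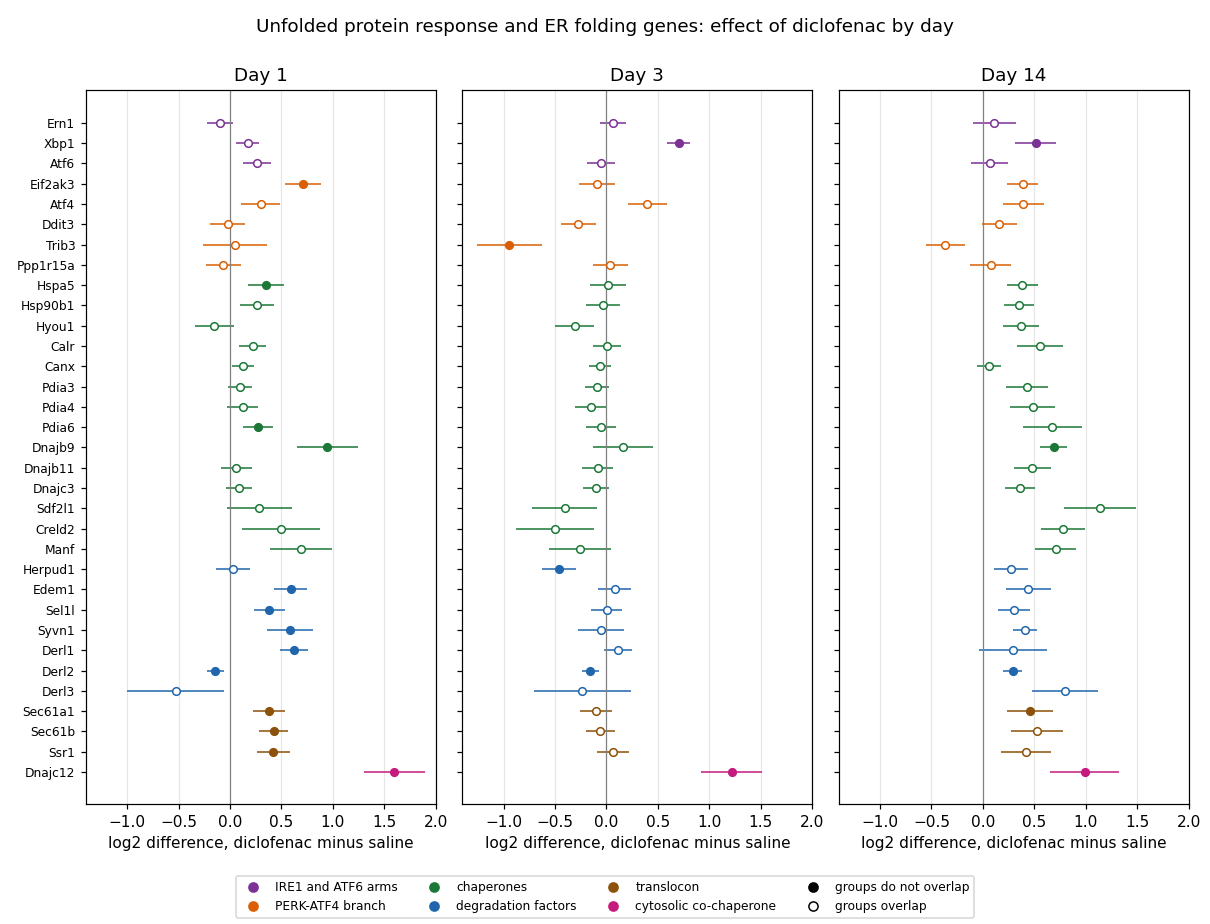
Log2 difference between diclofenac and saline (x axis, log2 units) for the 33 genes (y axis, coloured by role) at days 1, 3 and 14, with bars for the standard error of the limma fit. Filled points mark genes whose diclofenac and saline livers do not overlap, and most points lie right of 0 at days 1 and 14 but not at day 3.

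Xbp1, the transcription factor activated by IRE1, was the gene of the sensor arms that passed the test. At day 3 its signal was 40735, 36542 and 36775 in the diclofenac livers, against 24142, 21849 and 24067 in the saline livers. The groups were well separated, and the log2 difference was 0.70 (SE 0.11, adjusted p = 0.0322, limma), a 1.63-fold rise. At day 1 the signal was 28783, 34511 and 24991 in the diclofenac livers, against 25455, 23946 and 28455 in the saline livers, where the groups overlapped, and the log2 difference was 0.17 (SE 0.11, adjusted p = 0.529, limma), or 0.05 without diclofenac replicate 2. At day 14 it was 20368, 19990, 42353, 20647 and 21088 in the diclofenac livers, against 18837, 17825, 16978, 14904 and 14784 in the saline livers. All 5 diclofenac livers lay above all 5 saline livers (exact permutation test, two-sided p = 0.00794, the smallest that 5 against 5 can give), and replicate 3 was far above the other 4. The fit at day 14 gave 0.52 (SE 0.20, adjusted p = 0.385, limma), and 0.31 (SE 0.09, adjusted p = 0.138) without replicate 3, where the other 4 diclofenac livers at 19990 to 21088 still lay above the saline livers at 14784 to 18837. Averaged over days 1 and 3 the difference was 0.44 (SE 0.08, adjusted p = 0.0291, limma).

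The Xbp1 call at day 3 lies close to the threshold. Its log2 difference stayed between 0.62 and 0.74 under 19 other settings, but the adjusted p passed under 8 of them and ranged between 0.00215 and 0.264. Among single livers, the call was lost without saline replicate 1 of day 1, without any 1 of the saline replicates of day 3 and without diclofenac replicate 1 or 2 of day 3. All 4 Xbp1 probe sets had a positive difference at day 3, between 0.57 and 0.91, and 2 of them passed when every probe set was tested by itself. Spliced and unspliced Xbp1 mRNA were not told apart here. The sensors themselves did not pass the test on any day. Ern1, which encodes IRE1 alpha, differed by -0.10 on the log2 scale at day 1, by 0.06 at day 3 and by 0.11 at day 14, and Atf6, the membrane-bound transcription factor, by 0.26, -0.05 and 0.07, the last being 0.01 without diclofenac replicate 3. At day 14 diclofenac replicate 3, highest for Xbp1, was the lowest of all 10 livers for Ern1, with 1331, against 2494 to 3033 in the other diclofenac livers and 1892 to 2533 in saline livers. Without it the Ern1 difference at day 14 was 0.32 (SE 0.11).

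The PERK-ATF4 branch showed no common direction, and none of its 5 genes passed the test on any day (adjusted p at least 0.231). The median log2 difference was 0.05 at day 1, -0.09 at day 3 and 0.16 at day 14. Eif2ak3, which encodes PERK, had a signal of 756, 1017 and 652 in the diclofenac livers, against 541, 459 and 459.7 in the saline livers at day 1. The groups did not overlap, and the log2 difference of 0.71 (SE 0.17, adjusted p = 0.231, limma) was the highest of the branch on that day. Without replicate 2 of day 1 the difference was 0.53. At day 3 it was -0.09 and at day 14 0.39, or 0.26 without replicate 3, with overlapping groups on both days. Atf4, the factor translated when eIF2 alpha is phosphorylated, had positive differences on each day, of 0.30, 0.40 and 0.39, again with overlapping livers, and the first of these was 0.10 without replicate 2 of day 1. At day 14 its highest value, 9072, came from diclofenac replicate 3, while the other 4 diclofenac livers at 3965 to 4519 lay within or just above the 3489 to 4380 of saline livers, and the difference without replicate 3 was 0.18.

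Ddit3, which encodes CHOP, did not separate the groups on any day. Its signal at day 1 was 371, 311 and 289.6 in the diclofenac livers, against 326, 312 and 344 in the saline livers. At day 3 it was 251, 293 and 286 in the diclofenac livers, against 344, 397 and 271 in the saline livers. At day 14 it was 755, 528, 463, 570.4 and 698 in the diclofenac livers, against 389.8, 545, 499, 629 and 635 in the saline livers. The ranges of the groups overlapped each time, and the log2 differences were -0.02 (SE 0.17), -0.27 (SE 0.17) and 0.16 (SE 0.17), each within 2 standard errors of 0, and the last was 0.25 without replicate 3. A further Ddit3 probe set, bright enough to be tested at day 14 alone, had 0.70 there (SE 0.30, adjusted p = 0.464, limma). Trib3, a pseudokinase induced by ATF4 and CHOP, was the lowest of all 33 genes at days 3 and 14. Its signal at day 3 was 319.5, 210.1 and 541 in the diclofenac livers, against 667, 609 and 635 in the saline livers. The diclofenac livers all lay below the saline livers, and the log2 difference of -0.94 (SE 0.31, adjusted p = 0.287, limma) did not pass the test. At day 1 the difference was 0.05, or 0.34 without replicate 2, and at day 14 -0.36, the only negative one of the 33 genes on that day. Ppp1r15a, the phosphatase subunit GADD34 that reverses the phosphorylation of eIF2 alpha, had -0.07, 0.04 and 0.08, the last being -0.09 without replicate 3.

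The 14 chaperones and folding enzymes stood higher with diclofenac at day 14 and, less evenly, at day 1, but none passed the test. A difference above 0 was found for 13 of 14 at day 1 (median 0.24), for 3 of 14 at day 3 (median -0.09) and for all 14 at day 14 (median 0.48), and 11 of 14 had an unadjusted p under 0.05 at day 14, against 10.8% of all genes tested. Hspa5, which encodes the main ER chaperone BiP, had a signal of 19502, 28996 and 19312 in the diclofenac livers, against 17579, 15472 and 19244 in the saline livers at day 1. The lowest diclofenac liver was just above the highest saline liver, and the log2 difference was 0.35 (SE 0.17, adjusted p = 0.423, limma), or 0.16 without replicate 2. At day 3 the signal was 30382, 20471 and 28671 in the diclofenac livers, against 28594, 22865 and 26215 in the saline livers, with a difference of 0.02 (SE 0.17) and overlapping groups. At day 14 it was 42559.6, 26954, 41904, 31807 and 33727 in the diclofenac livers, against 26587, 24580.4, 22861, 32649 and 27962 in the saline livers. There 3 of 5 diclofenac livers were above the highest saline liver, and the difference was 0.38 (SE 0.15, adjusted p = 0.391, limma). Without replicate 3 it was 0.32 (SE 0.14).

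Dnajb9, the co-chaperone ERdj4 of BiP, was the chaperone with the clearest separation. At day 14 its signal was 12279, 9025, 15401, 11861 and 11291 in the diclofenac livers, against 6393, 7227, 7617, 7786 and 7697 in the saline livers. The lowest diclofenac liver exceeded the highest saline liver, with a log2 difference of 0.69 (SE 0.13, adjusted p = 0.106, limma). Its exact permutation p of 0.00794, unadjusted and the smallest possible, restates this separation, and separation was the reason for naming Dnajb9. Fitted by limma without diclofenac replicate 3, the difference was 0.59 (SE 0.10, adjusted p = 0.0234, limma), and it passed, as did 1.05% of 11742 genes in that fit. Over its 17 other settings the adjusted p at day 14 ranged between 0.0234 and 0.251, and it passed under that setting alone. Its day 1 signal was 6231, 14819 and 6296 in the diclofenac livers, against 3662, 4578 and 4841 in the saline livers. The groups were apart, replicate 2 was more than 2 times the other diclofenac livers, and the difference was 0.95 (SE 0.29, adjusted p = 0.293, limma), or 0.53 without that liver. At day 3 it was 8060, 7216 and 5785 in the diclofenac livers, against 8533, 5545 and 5079.7 in the saline livers, and the groups overlapped.

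Among the other chaperones the largest differences at day 14 belonged to Sdf2l1, an ER protein that binds the co-chaperone ERdj3, with 1.14 (SE 0.35, adjusted p = 0.279, limma), to Creld2, an ER protein induced by stress, with 0.78 (SE 0.21, adjusted p = 0.237, limma), and to Manf, a small stress-induced protein that is retained or secreted, with 0.71 (SE 0.20, adjusted p = 0.245, limma). In each of these 3 genes 3 of 5 diclofenac livers lay above the highest saline liver. Sdf2l1 had 1435 to 6234 in diclofenac livers, against 934 to 1745 in saline livers. Its difference was 0.82 without replicate 3, that of Creld2 0.74 and that of Manf 0.55. The lowest difference of the role at day 14 was that of the lectin chaperone Canx, with 0.06, and its partner Calr had 0.55. Of the rest, Pdia6, Pdia4 and Pdia3, which form and rearrange disulfide bonds, had 0.68, 0.48 and 0.43, the co-chaperones Dnajb11 and Dnajc3 with 0.48 and 0.36, the nucleotide exchange factor Hyou1 with 0.37 and the GRP94 gene Hsp90b1 with 0.35. Without replicate 3 the difference was 0.38 for Pdia6, 0.30 for Pdia4, 0.26 for Pdia3, 0.35 for Calr, 0.23 for Dnajc3 and 0.02 for Canx.

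At day 3 Creld2, Sdf2l1 and Manf lay below 0, and none of the chaperones passed the test. Creld2 had the lowest difference of the role with -0.50 (SE 0.38), followed by Sdf2l1 with -0.41 (SE 0.32), and Dnajb9 had the highest with 0.16. At day 1 Dnajb9 was again the highest and Hyou1 the lowest, with -0.15 (SE 0.19). Hsp90b1, Calr, Canx, Pdia3, Pdia4, Pdia6, Dnajb11 and Dnajc3 lay between 0.06 and 0.27 at day 1 and between -0.16 and 0.01 at day 3. Without replicate 2 of day 1 these 8 lay between -0.07 and 0.25 on that day, with Pdia4 and Dnajb11 below 0, while Manf had 0.37 in place of 0.69, Creld2 0.28 in place of 0.50 and Hyou1 -0.26. For Pdia6 at day 1 the diclofenac livers, 6924, 6573 and 5843, lay above the saline livers, 5539.5, 4764 and 5756.

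**Figure D2:**
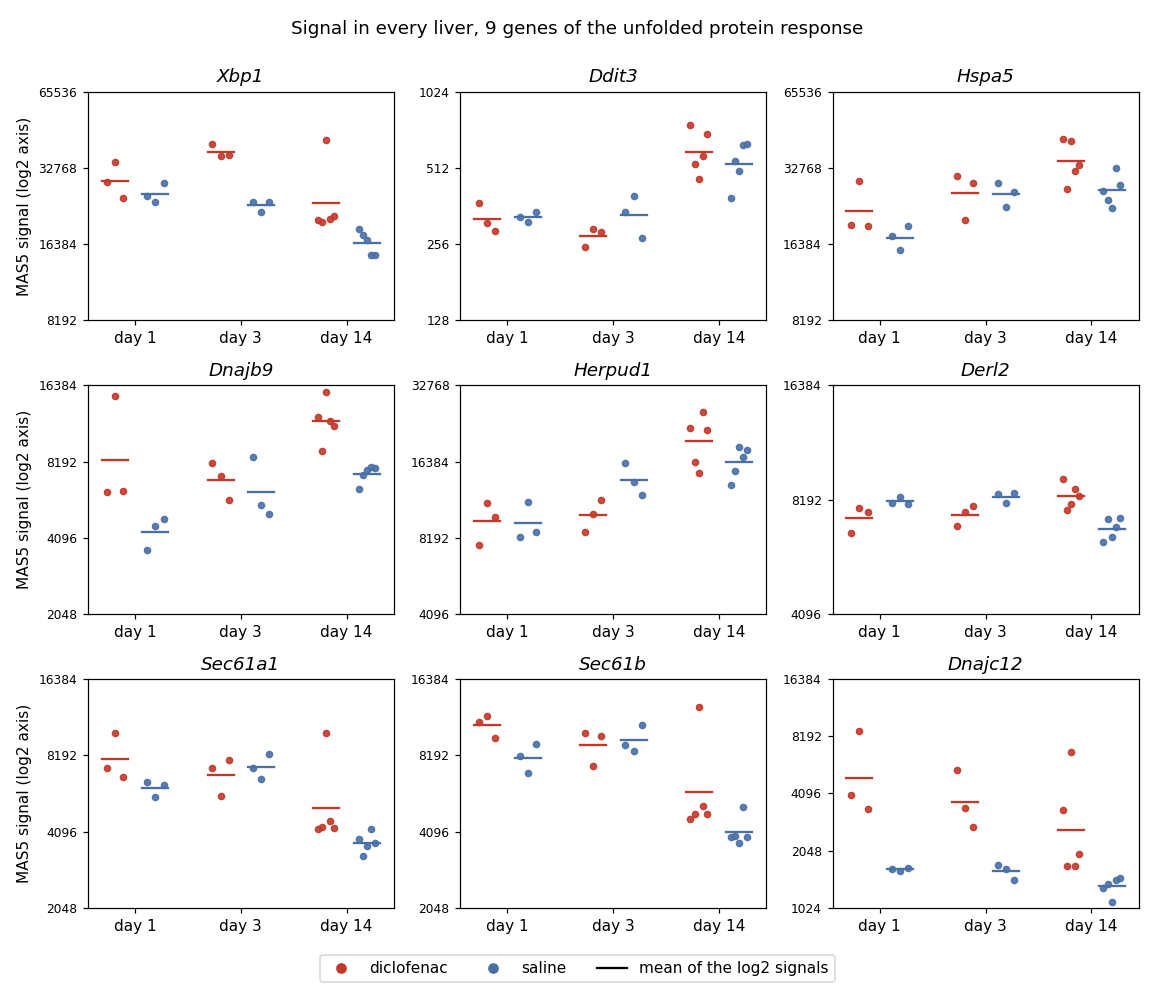
MAS5 signal (y axis, log2 scale) in every liver of 9 genes at days 1, 3 and 14, diclofenac left of saline, with a bar at the mean of the log2 signals. Dnajc12 separates the groups on each day and Xbp1 at days 3 and 14, while diclofenac replicate 3 at day 14 lies far above the other livers of its group for Xbp1, Sec61a1 and Sec61b.

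The factors of ER-associated degradation, which pull misfolded proteins back to the cytosol and mark them with ubiquitin, varied in direction with the day. The difference was above 0 for 5 of 7 at day 1 (median 0.38), 4 of these being apart from saline, against 8.23% of all genes, for 3 of 7 at day 3 (median -0.05) and for all 7 at day 14 (median 0.30). None passed the test. When a gene's probe sets were averaged in place of taking the brightest, the median at day 1 was 0.11. Derl1, a derlin of the retrotranslocation channel, had the highest difference at day 1. Its signal was 7349.7, 8875 and 6359.8 in the diclofenac livers, against 4359, 4418 and 5932 in the saline livers. The groups were apart, with 0.62 (SE 0.13, adjusted p = 0.231, limma). Edem1, which directs misfolded glycoproteins to degradation, had 0.59 (SE 0.16), Syvn1, the ubiquitin ligase HRD1, 0.59 (SE 0.22), and Sel1l, its adaptor, 0.38 (SE 0.15), and in these too the livers did not overlap at day 1. Diclofenac replicate 2 had the highest signal in all 4 of these genes, and without it the median of the 7 genes was 0.24, with 0.49 for Derl1, 0.40 for Edem1, 0.30 for Syvn1 and 0.24 for Sel1l. At day 14 Edem1 had 0.44, or 0.21 without replicate 3, and Derl1 0.29, or -0.08.

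Herpud1, a scaffold of the HRD1 complex and one of the most stress-inducible genes of the group, had a signal of 7689, 11283 and 9939 in the diclofenac livers, against 8291, 11342 and 8659.9 in the saline livers at day 1, with a difference of 0.03 (SE 0.17), or -0.10 without replicate 2. At day 3 it was 8678, 10164 and 11542 in the diclofenac livers, against 16247, 13590.1 and 12066 in the saline livers. Here the diclofenac livers all lay below the saline livers, and the log2 difference was -0.46 (SE 0.17, adjusted p = 0.324, limma). At day 14 it was 22195, 16289.7, 14814, 25752 and 21883 in the diclofenac livers, against 13251, 15058, 18765, 17031 and 18147 in the saline livers. The groups overlapped, with 0.28 (SE 0.16, adjusted p = 0.562, limma), and 3 of 5 diclofenac livers were above the highest saline liver. Saline livers themselves had a higher Herpud1 signal at day 3 than at day 1, by 0.57 on the log2 scale (SE 0.17, adjusted p = 0.223, limma), which did not pass the test either.

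Derl2, another derlin, lay slightly below saline at days 1 and 3 and above it at day 14, and passed the test on none of them. Its signal at day 1 was 6677, 7792 and 7591 in the diclofenac livers, against 8054, 8304 and 7978 in the saline livers. At day 3 it was 6997, 7585 and 7890.2 in the diclofenac livers, against 8474, 8036 and 8533 in the saline livers. Diclofenac livers lay below saline livers on both days, with differences of -0.14 (SE 0.08) and -0.16 (SE 0.08). At day 14 the signal was 9266, 7701, 7972, 8763 and 8392 in the diclofenac livers, against 6353, 7286, 6555, 6947 and 7318 in the saline livers. Now all diclofenac livers lay above the saline livers, with 0.29 (SE 0.09, adjusted p = 0.279, limma), and with 0.31 without replicate 3. Its exact permutation p of 0.00794, unadjusted, restates this separation, and Derl2 was named because its livers were apart. A second Derl2 probe set had -0.37, -0.68 and -0.04 on the 3 days, so that the probe sets do not share the sign at day 14. Derl3, the derlin known for its induction by XBP1 and ATF6, had a low and variable signal, with 242 to 1181 in diclofenac livers, against 739.9 to 915 in saline livers at day 1, and its difference was -0.53 (SE 0.47) at day 1, or 0.11 without replicate 2, -0.23 (SE 0.47) at day 3 and 0.80 (SE 0.32) at day 14.

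The translocon genes, which pass new proteins into the ER, were apart from saline at day 1 and overlapped with it at day 3. Their 3 differences at day 1 lay between 0.37 and 0.42, and none passed the test. All 3 were apart upward on that day, against 8.23% of all genes. Without diclofenac replicate 2 the median of the 3 genes at day 1 was 0.22. Sec61b, a subunit of the channel, had at day 1 a signal of 11098, 11699 and 9561 in the diclofenac livers, against 8158, 6967 and 9053 in the saline livers. The difference was 0.42 (SE 0.14, adjusted p = 0.305, limma). At day 3 the signal was 10043, 7444 and 9771 in the diclofenac livers, against 8978, 8503 and 10823 in the saline livers, and the groups overlapped, with -0.06 (SE 0.14). At day 14 it was 4605, 4824, 12699.5, 5167 and 4812 in the diclofenac livers, against 3906, 3945, 3706, 5121 and 3893 in the saline livers. The difference at day 14 of 0.52 (SE 0.25, adjusted p = 0.487, limma) was 0.25 without replicate 3, which had more than 2 times the signal of any other liver of that day.

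Sec61a1, which forms the pore of the channel, followed the same course. Its signal at day 1 was 7299, 10003 and 6729 in the diclofenac livers, against 6437, 5609 and 6248 in the saline livers. The groups were apart, with 0.37 (SE 0.16), and 0.20 without diclofenac replicate 2. At day 3 the signal was 7289.7, 5640.4 and 7829 in the diclofenac livers, against 7279, 6589 and 8321 in the saline livers, with overlap and -0.10 (SE 0.16). At day 14 it was 4205, 4250, 10032, 4505 and 4238 in the diclofenac livers, against 3815, 3268, 3604, 4199.9 and 3684 in the saline livers. The lowest diclofenac liver, at 4205, was above the highest saline liver, at 4199.9, and the difference of 0.46 (SE 0.22) was 0.22 without replicate 3. Ssr1, the alpha subunit of the translocon-associated protein complex, had 0.42, 0.06 and 0.42, the first being 0.22 without replicate 2 of day 1 and the last 0.15 without replicate 3 of day 14.

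Dnajc12 differs from the chaperones above in that its protein is a cytosolic co-chaperone, known from human genetics for its role with the aromatic amino acid hydroxylases. It had the largest difference of all 33 genes at days 1 and 3. Its signal at day 1 was 4021, 8773 and 3399.8 in the diclofenac livers, against 1636, 1591 and 1662 in the saline livers. At day 3 it was 5467, 3421 and 2726 in the diclofenac livers, against 1719, 1642 and 1438 in the saline livers. The groups did not overlap on either day. The differences were 1.60 (SE 0.30, adjusted p = 0.201, limma) and 1.22 (SE 0.30, adjusted p = 0.147, limma), so that neither day passed by itself. Their mean of 1.41 (SE 0.21, adjusted p = 0.013, limma) passed, and it did so under each of 19 other settings with adjusted p between 0.00235 and 0.046. Without diclofenac replicate 2 of day 1 the day 3 difference of 1.22 passed as well (adjusted p = 0.00847, limma), and the day 1 difference was 1.18. At day 14 the signal was 3365, 1689.6, 6739, 1693 and 1961 in the diclofenac livers, against 1299, 1360.3, 1103, 1438 and 1467 in the saline livers. The groups were still apart, with 0.99 (SE 0.33, adjusted p = 0.328, limma) and an exact permutation p of 0.00794. Diclofenac replicate 3 was the highest, and without it the difference was 0.65 (SE 0.18, adjusted p = 0.128, limma). The gene has 1 probe set on the array, so no second reading was available.

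The level of each role in a liver was summarised as the median, over its genes, of the log2 signal minus the saline mean of that day. At day 1 the degradation factors stood at 0.28, 0.67 and 0.30 in the diclofenac livers, against -0.01, -0.14 and 0.05 in the saline livers, and the chaperones at 0.21, 0.41 and 0.00, against 0.16, -0.18 and 0.03. By these medians the livers of the groups were apart for the degradation factors, read from the brightest probe set of each gene, and overlapped for the chaperones. At day 3 the chaperones lay between -0.33 and 0.04 with diclofenac, against -0.15 and 0.12 with saline. At day 14 they stood at 0.62, 0.12, 1.05, 0.24 and 0.55 with diclofenac, against -0.15, -0.01, -0.19, 0.33 and 0.04 with saline. Here 2 diclofenac livers lay within the range of the saline group, whose replicate 4 was high.

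**Figure D3:**
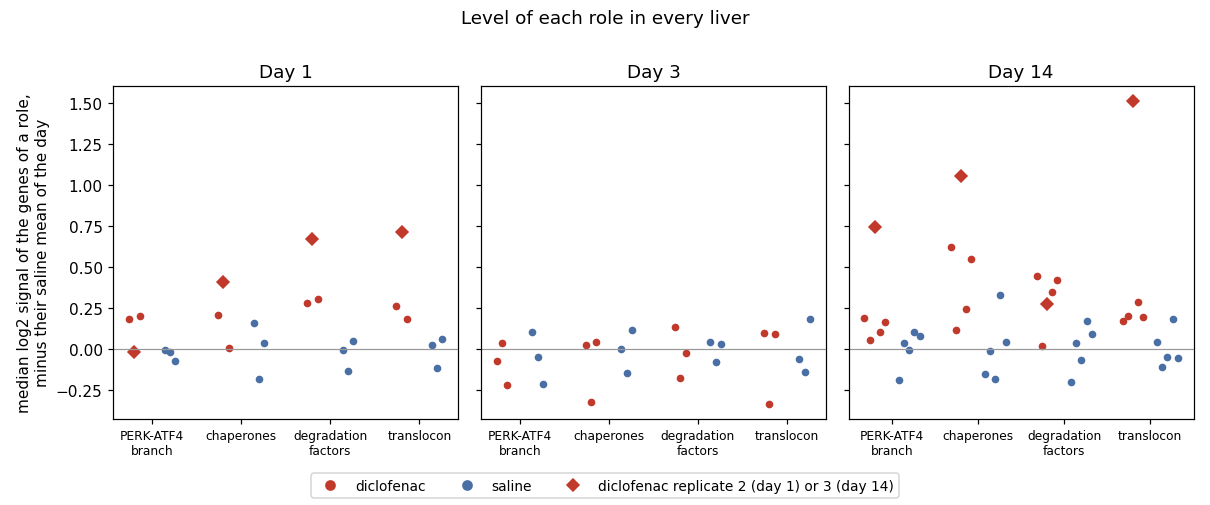
Median log2 signal of the genes of 4 roles minus their saline mean (y axis, log2 units) in every liver, for days 1, 3 and 14, with diclofenac left of saline. Diamonds mark the diclofenac livers with the high neutrophil marker signal, replicate 2 at day 1 and replicate 3 at day 14, and the day 14 one reaches 1.51 for the translocon and 1.05 for the chaperones but 0.28 for the degradation factors.

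A single liver was the highest for most of the genes on 2 of the days. Diclofenac replicate 3 had the highest signal of all 10 livers for 21 of 33 genes at day 14, against 27.9% of all genes tested, and diclofenac replicate 2 had the highest of 6 for 21 of 33 genes at day 1, against 27.6%. Replicate 3 at day 14 also had the highest signals of that day for the 18S control (16.1 on the log2 scale, against 15.1 to 15.8 on the other 9 arrays) and for the hybridisation controls (12.4, against 11.9 to 12.3), and their part in the result was not tested. Without it 30 of 33 genes were above 0 at day 14, with a median of 0.30, 21 had an unadjusted p under 0.05, against 13.2% of 11742 genes in that fit, and 5 were apart upward, against 3.17% of all genes. Without replicate 2 at day 1 there were 26 of 33 above 0, with a median of 0.16, 7 with an unadjusted p under 0.05, against 7.14% of 12751 genes in that fit, and 12 apart upward, against 11.8% of all genes. The chaperone median was 0.33 at day 14 and 0.14 at day 1 without these livers, and the translocon median 0.22 on both days. At day 14 and day 1 the degradation factors had medians of 0.38 and 0.24 without them. The PERK-ATF4 branch had 0.18 and 0.10, and the IRE1 and ATF6 arms 0.31 and 0.05.

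**Figure D4:**
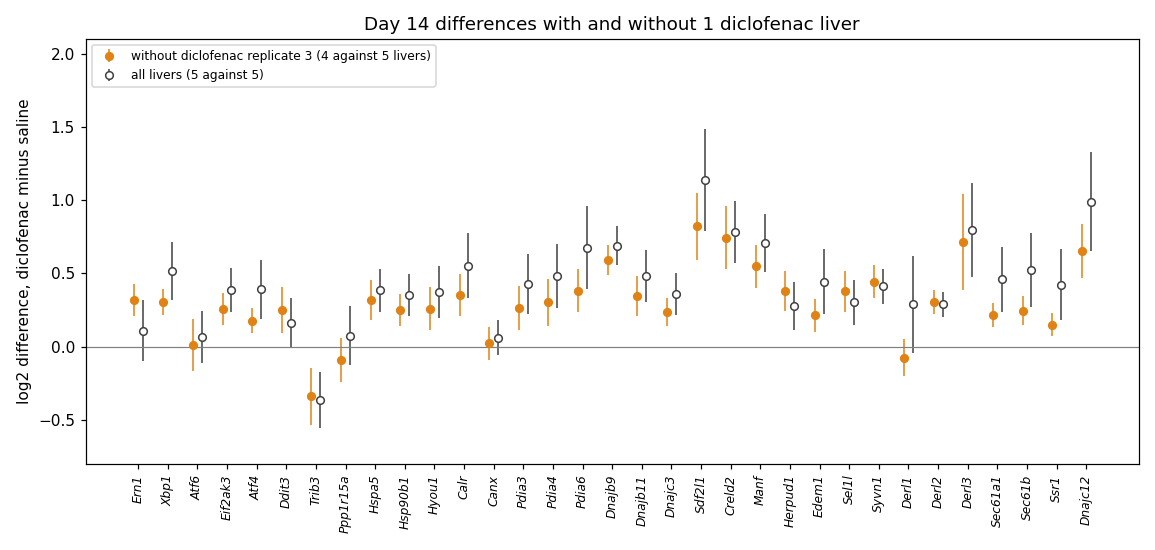
Log2 difference between diclofenac and saline at day 14 (y axis, log2 units, bars for the standard error) for each of the 33 genes, without diclofenac replicate 3 (filled) and with all livers (open). The chaperones stay above 0 both ways, while Derl1, with 0.29 over all livers, lies at -0.08 without that liver.

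Whether the effect of diclofenac differed between day 3 and day 1 was tested as an interaction. For 28 of the 33 genes the day 3 effect was the lower one, with a median of -0.32, against 0.01 over all genes, but none passed (0% of 12884 genes), and the smallest adjusted p was 0.881. At an unadjusted p under 0.05 there were 8, against 5.39% of all genes: Xbp1 with a higher effect at day 3, and Eif2ak3, Trib3, Manf, Edem1, Derl1, Sec61a1 and Sec61b with a lower one. Diclofenac replicate 2 of day 1 enters these differences, and they are not given without it. Leaving it out, the day 1 median of the 33 genes was 0.16 in place of 0.26. The saline livers of days 1 and 3 were compared in the same model. Between saline livers, day 3 minus day 1, 23 of 33 genes were above 0 with a median of 0.12, against -0.04 over all genes, and none passed, against 0.217% of 12884 genes, while 8 had an unadjusted p under 0.05, against 10.4%. The extremes were 0.95 (SE 0.38) for Creld2 and -1.08 (SE 0.47) for Derl3, and Hspa5 had 0.57 (SE 0.17).

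Saline livers of day 14 lay below all saline livers of days 1 and 3 for 11 of 33 genes, against 13.3% of all genes, and above them for 1, Atf4, against 11%. Among the 11 were the 3 translocon genes, Derl1, Derl2, Edem1, Pdia6, Canx, Xbp1, Ern1 and Trib3. Sec61b, for example, had 3906, 3945, 3706, 5121 and 3893 at day 14, against 6967 to 10823 in the 6 saline livers of days 1 and 3. The log2 signal of the 18S control was 15.2 to 15.8 on the saline arrays of day 14, 14.5 to 14.8 at day 3 and 11.8 to 12.4 at day 1, and day and array handling cannot be told apart. Comparisons of diclofenac with saline were made within a day.

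Genes of the same pathway outside the 33 also lay mostly above 0 at days 1 and 14, and none of the 87 tested passed the test for diclofenac on any day. Across these 87 genes 76 were above 0 at day 1 (median 0.27), 42 at day 3 (median -0.01) and 68 at day 14 (median 0.22). They were read from the same livers as the 33 genes and are no separate support for their pattern. Diclofenac replicate 2 of day 1 and replicate 3 of day 14 are included, and values without these livers are not given for the 87. Further ER folding enzymes had medians of 0.26, -0.02 and 0.26 on the 3 days, and the group of translocation, signal peptidase and glycosylation genes 0.31, -0.03 and 0.36. Further ER degradation factors had 0.21, -0.09 and 0.15, genes of transport between the ER and the Golgi 0.16, 0.01 and 0.16, and other ER membrane regulators 0.26, -0.02 and 0.07. In each of these lists the median was lowest at day 3. Between saline livers, day 3 minus day 1, the glucosidase II gene Ganab was the only one of the 87 that passed, with 0.63 (adjusted p = 0.0351, limma). The targets of ATF4 in the amino acid response had 0.28, 0.05 and 0.10 and spread widely, at day 14 between -1.57 for Phgdh, which starts serine synthesis, and 1.23 for Chac1, which degrades glutathione. Among 7 other regulators in the ER membrane Creb3l2, a transcription factor related to ATF6, had the highest difference on each day, with 0.71, 0.71 and 0.65, and did not pass (adjusted p at least 0.148 on a single day, limma). Phgdh, Chac1 and Creb3l2 were named after their values were seen.

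Probe sets of 1 gene did not always share a sign. Among the genes with 3 or more probe sets tested at day 14, all were positive for Xbp1, Calr, Dnajc3, Sel1l, Sec61a1, Ssr1, Hyou1 and Canx. The signs were mixed for Hspa5, with 2 of 3 positive between -0.13 and 0.44, for Atf6, with 2 of 3, for Ern1, with 2 of 4, and for Derl1, with 3 of 4. At day 1 the 4 probe sets of Derl1 ranged between 0.18 and 0.62 and the 6 of Sec61a1 between 0.29 and 1.12, all positive. Among genes with 3 or more probe sets tested at day 1, all were also positive for Atf6, Calr, Canx and Dnajc3. Signs were mixed on that day for Sel1l, with 3 of 5 positive between -0.19 and 0.38, and for Ssr1, with 3 of 4 between -0.22 and 0.65. They were mixed too for Hspa5, with 2 of 3, for Xbp1, with 3 of 4, and for Ern1, with 1 of 3. Of genes with 2 probe sets tested at day 1, signs differed for Hsp90b1 (0.26 and -0.28), Pdia3 (0.10 and -0.37) and Trib3 (0.05 and -0.43). They differed too for Hyou1 (-0.15 and 0.02) and Herpud1 (0.03 and -0.11), but not for Atf4, Pdia4, Pdia6, Edem1, Syvn1 and Derl2. At day 3, among genes with 3 or more, only Xbp1, Derl1 and Canx had 1 sign throughout, negative for Canx. Genes with and without an ERSE in the promoter window had similar medians at day 14. The 9 genes with the 19 letters had medians of 0.26, -0.05 and 0.41 at days 1, 3 and 14, the 13 with the 18 letters 0.13, -0.09 and 0.41, and the 14 matched genes without them 0.29, 0.02 and 0.41. These are descriptions, with no test between the sets.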

How the data were processed

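The authors hybridised RNA of 22 whole livers and deposited 1 MAS5 signal intensity per probe set, on a linear scale, scaled to a common trimmed mean. The precision is limited by the number of arrays. No sample column was left unused.

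Probe sets were named from the platform annotation: of 45101, 34958 have 1 symbol, 932 several and 9211 none, and only those with 1 were used. Intensities were taken as log2 as deposited. Genes above the array median in at least 3 arrays were fitted with limma 3.58.1 (R 4.3.3, lmFit and eBayes with trend), with the 12 arrays of days 1 and 3 in 1 model and the 10 of day 14 in another. P-values were two-sided and adjusted by Benjamini-Hochberg over all genes tested, with a threshold of 0.05. The fit was tested on simulated data. Exact permutation tests over livers (scipy 1.17.1) were two-sided.

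Every liver is given for genes past the test, for genes whose groups did not overlap in 1 direction on at least 2 days, and for 1 gene of each role, with the highest and lowest of a role also named. Livers of a single day are given for Eif2ak3, Trib3 and Derl1, each highest or lowest of its role that day. Those of Pdia6 at day 1 are given outside these rules. The genes, lists and rules were chosen with earlier results of these data known. Alternatives covered normalization, filter, offset, probe set choice, samples in the model, replicate block, the methods' t-test and leaving out each array.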

Additional observations from a re-analysis of the deposited data

Results flagged for a closer look

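At day 14 diclofenac replicate 3 lay far from the other 4 livers of its group in 7 of the 33 genes. Its gap to the nearest liver was more than 0.71 of the range of the group, both taken on the log2 scale. Its Xbp1 signal was 42353, against 19990 to 21088 in the other diclofenac livers, Atf4 was 9072, against 3965 to 4519, and Derl1 was 8466, against 2105 to 2526. The translocon genes stood out in the same liver, with 10032 for Sec61a1, against 4205 to 4505, with 12700 for Sec61b, against 4605 to 5167, and with 10220 for Ssr1, against 3738 to 4154. Ern1 was low there, at 1331, against 2494 to 3033. Among saline livers replicate 4 had 9872 for Manf, against 6649 to 7086 in the other saline livers, and 5121 for Sec61b, against 3706 to 3945. These are 9 of 66 groups of 5 livers looked at. A rate of about 1 in 20 would hold for independent groups of normally distributed values. The genes share the same livers, and 7 of the 9 gaps come from 1 liver. The count can therefore not be set against that rate, and the share over all genes was not computed.

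Derl2 was lower in every diclofenac liver than in every saline liver at day 1, with a log2 difference of -0.14, and at day 3, with -0.16, and higher in every one at day 14, with 0.29. The difference between day 14 and the earlier days was not tested.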

How the results depend on the processing

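At day 3, where 1 gene passed, none did with arrays centred on their median, without the filter, with the mean of probe sets, with all 22 arrays in 1 model, with the replicate block or with the methods' t-test after Benjamini-Hochberg adjustment (0 each), and the cause was not tested. The methods' t-test without adjustment gave 2 at day 1, 2 at day 3 and 4 at day 14. Leaving out 1 liver gave 0 to 2 at day 3, the 2 being without diclofenac replicate 2 of day 1, 0 to 1 at day 14, the 1 being without diclofenac replicate 3, and 1 to 3 on the mean of days 1 and 3, the 3 being without diclofenac replicate 3 of day 1. That mean, with 2 genes, gave 1 with all 22 arrays and 1 with the replicate block. Between saline livers, Hsp90b1 passed when each probe set was tested by itself, giving 1.

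With the mean of probe sets the median of the degradation factors at day 1 was 0.11 in place of 0.38, and that of the PERK-ATF4 branch at day 3 -0.30 in place of -0.09. Leaving out 1 liver moved the degradation median at day 3 between -0.18 and 0.067, and the PERK-ATF4 median between -0.046 and 0.20 at day 1 and between -0.20 and 0.04 at day 3. Of 291 such values 259 were classed as the same, 21 as weaker, 6 as stronger and 5 as moved, and none that had passed turned in sign.

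Over all genes, 26 passed at day 3, against 1 with all 22 arrays, 3 with the replicate block, 13 with the mean of probe sets, 16 without the filter, 17 after quantile normalization and 0 to 178 without 1 liver. At day 14, where 0 passed, there were 133 with all 22 arrays, 15 after centring, 3 after quantile normalization, 2 with the offset, 1 with the replicate block and 0 to 123 without 1 liver. On the mean of days 1 and 3, 87 passed, against 32 with all 22 arrays, 56 with the replicate block and 16 to 326 without 1 liver. At day 1 there were 0 to 5 without 1 liver. The labels number the replicates alike in each group, but over 11 pairs the deviations of same-numbered livers correlated between -0.03 and 0.04, so the numbers were not taken as pairs.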

Other observations

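Of 1268 genes for which the other 9 arrays of day 14 lay outside the range of the 12 arrays of days 1 and 3, diclofenac replicate 3 of day 14 lay inside that range in 401 (31.6%). That is 3.37% of the 11884 genes tested at day 14, and among the 33 genes of the unfolded protein response 1 did so, which is close to that share. It was Derl1, with 8466 in that liver, against 2105 to 3371 in the other 9 livers of day 14 and 4359 to 8875 at days 1 and 3. For Xbp1, Sec61a1, Sec61b and Ssr1 the other 9 livers also lay below the range of days 1 and 3. Replicate 3 lay above that range for these genes, with 42353, 10032, 12700 and 10220, against maxima of 40735, 10003, 11699 and 8431. The count and this list were made after the values were seen.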
